A study of Aspergillus nidulans with 7 samples.

Results

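The septin genes of Aspergillus nidulans, a filamentous fungus, were followed while submerged mycelium of the wild-type strain FGSC A4 was exposed to air and formed conidiophores, the stalks that carry its asexual spores. The members were the 5 rows of the deposited gene table with the identifiers AN4667 (aspA), AN6688 (aspB), AN8182 (aspC), AN1394 (aspD) and AN10595 (aspE), of 10639 genes in all, and the reference table gave the same 5 symbols for them. All groups were of this genotype, with no mutant or treated strain. Per the labels, the group at 0 h was mycelium filtered from an aerated liquid culture and frozen, and those at 6, 12, 18, 24, 30 and 48 h were filters of the same culture kept moist in air under constant light, with aerial hyphae at about 6 h, vesicles and metulae by about 12 h, phialides at 12 to 18 h and chains of spores from 24 h on. Each time had 1 mRNA sequencing library, so no value has a replicate and no time could be tested against another.

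Septins are GTP-binding proteins that assemble into rods, filaments and rings under the plasma membrane. In filamentous fungi they mark sites of septation and branching, and in A. nidulans they are also found where vesicle, metulae, phialides and spores join in the conidiophore. aspA, aspB, aspC and aspD are called the core septins here and correspond to the Saccharomyces cerevisiae septin genes CDC11, CDC3, CDC12 and CDC10, which together build the septin rod. aspE belongs to a septin class of filamentous fungi that has no counterpart in S. cerevisiae.

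The smallest library held 4186063 counts (12 h) and the largest 9899347 (30 h). The top 100 genes by count took 20.8% of the 48 h library and 45.3% of the 0 h library, and TMM normalization (edgeR's scaling of libraries by the bulk of genes) gave factors of 0.878 to 1.39 to the libraries in air and 0.459 to the 0 h library. Levels scaled by TMM and levels scaled by library totals therefore run apart, mostly between 0 h and the rest, and both are given below. brlA, which starts conidiophore formation, had 347 TMM-scaled CPM (counts scaled by library size) at 48 h and 3 counts each at 0 and 6 h, and rodA, a spore wall gene, had 7560.0 CPM at 48 h and 0 counts at 0 h.

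The 5 genes lay on 5 different contigs of the deposited table, and no other listed gene overlapped any of them. The counts rested on coding lengths of 1140 nucleotides for aspA, 1380 for aspB, 1155 for aspC, 1029 for aspD and 1764 for aspE, as the deposited reads per nucleotide imply. aspE was at contig 79, 106647 to 108936, 1753 nucleotides from AN4807 and 1006 nucleotides from AN10598. aspD, on contig 19 (55260 to 56574), had AN1393 at 424 nucleotides and AN10188 at 497 nucleotides, and aspC had AN8183 at 451 nucleotides and AN8181 at 3253 nucleotides. The neighbours of aspA were AN4666 at 1642 and AN4668 at 2772 nucleotides, and those of aspB were AN6687 at 2400 and AN6689 at 1157 nucleotides. aspA was at contig 78 (11014 to 12568), aspB at contig 108 (55852 to 57652) and aspC at contig 138 (166289 to 167827), on a genome build that the sources used here do not name.

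On the TMM scale aspE had the widest range of the septins, 5.97-fold between its highest and lowest level against 1.47 to 2.32-fold for the core septins, while on the deposited scale, set by totals, aspD (3.08-fold) and aspC (2.82-fold) ranged more widely than aspE (1.97-fold). Its level was lower at every time in air than in the submerged culture on both scales, and relative to the 4 core septins it stood apart from 6 h on. Its TMM-scaled RPKM (reads scaled by length and library size) was 150.4, 45.4, 49.1, 47.3, 33.4, 32.3 and 25.2 in the libraries in order of time, from 847, 376, 378, 435, 365, 739 and 559 counts. The 0 h level was more than 3 times any level in air, and on this scale the levels from 6 to 18 h lay above those from 24 h on, with exact 95% counting intervals of 40.9 to 50.2 RPKM at 6 h and 30.1 to 37.0 RPKM at 24 h. Such intervals cover counting error only, here and below.

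As the authors deposited it, scaled by totals, the RPKM of aspE was 69.0, 39.8, 51.2, 50.7, 40.6, 42.3 and 35.1 over the same times. On that scale too the 0 h library was the highest and the 48 h library the lowest, but the 6 h level lay below those at 24 and 30 h. Among all 9703 genes tested, ranked by counts per base within a library, aspE lay above 85.9% of genes at 0 h, above 61.7% to 71.9% from 6 to 30 h, and above 52.4% at 48 h. That rank does not depend on how libraries are scaled. In these libraries, fewer cells that express a gene and less RNA per cell cannot be told apart.

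The fitted change of aspE over 0 to 48 h was -2.19 log2 units (SE 0.53, 7 libraries; edgeR BH-adjusted p = 0.0192), while 12.4% of all genes tested fell and 10.6% rose by the same rule. The 48 h level was 0.167 times the 0 h level on the TMM scale, with a counting interval of 0.150 to 0.187, and 0.509 times by totals. Scaling by totals ended the call (-0.75; edgeR BH-adjusted p = 0.217), and so did leaving out the 0 h library (-0.97; edgeR BH-adjusted p = 0.0568) or the 30 h library (-2.16; edgeR BH-adjusted p = 0.0506). By totals 3.21% of all genes fell, 21.2% rose and 0 septins were called. The median fitted change of all genes was 0.11 with TMM and 1.35 by totals, and the change of aspE minus that median was -2.30 log2 units with TMM and -2.10 by totals.

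Most of the difference lay between 0 and 6 h. At 6 h aspE stood at 0.302 times its 0 h level on the TMM scale (counting interval 0.266 to 0.341) and at 0.577 times by totals, and 7.75% of the genes tested had a lower ratio. By size alone on the TMM scale, 18.7% of genes were at least 2-fold lower at 6 h than at 0 h, and aspE was the 1 septin among them. At 48 h, where 23.6% of genes were at least 2-fold lower than at 0 h on this scale, aspE and aspB were among them. By totals aspB at 48 h stood at 1.36 times its 0 h level and aspE at 0.509 times. Between later neighbouring times aspE moved less: the ratio was 1.08 for 12 over 6 h (0.936 to 1.25), 0.964 for 18 over 12 h (0.838 to 1.11), 0.706 for 24 over 18 h (0.612 to 0.813), 0.967 for 30 over 24 h (0.852 to 1.10) and 0.780 for 48 over 30 h (0.698 to 0.872), all on the TMM scale. Of these 5 steps, 2 had an interval that lay below 1.

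**Figure D1:**
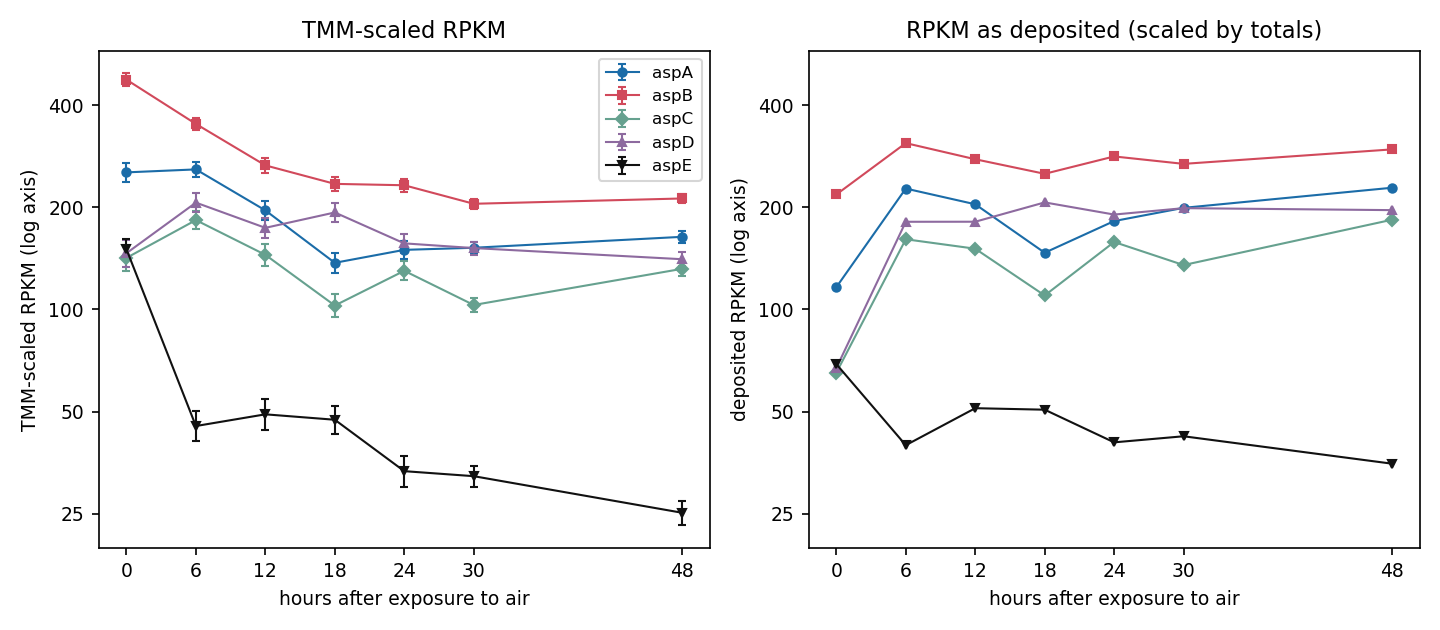
Level of each septin per kilobase against hours after exposure to air, 1 library per time, with a log y axis: TMM-scaled RPKM on the left, with exact 95% counting intervals as bars, and the deposited RPKM on the right. aspE is lowest from 6 h on in each panel, while the 4 core septins lie above their 0 h levels in the right panel and at or below them from 24 h on in the left panel, aspD at 24 and 30 h excepted.

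aspB, the counterpart of CDC3, was the most abundant septin per base in all 7 libraries. Its TMM-scaled RPKM was 475, 352, 266, 234, 232, 205 and 212 from 0 to 48 h, from 2093, 2282, 1600, 1685, 1985, 3667 and 3685 counts. On this scale the 0 h level was the highest and the levels from 18 h on lay between 205 and 234 RPKM. The deposited RPKM was 218, 309, 277, 251, 282, 268 and 296, with the 0 h library the lowest.

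The direction of aspB therefore turned with the scaling. Its fitted change over 0 to 48 h was -1.10 log2 units with TMM (SE 0.42; edgeR BH-adjusted p = 0.0906) and 0.20 by totals (edgeR BH-adjusted p = 0.714), so it did not pass the test on either scale. It was past the threshold with DESeq2 (-1.17; adjusted p = 0.0433), where 16.2% of genes fell, and with time entered as log2 of hours plus 6 (-1.27; edgeR BH-adjusted p = 0.0213), where 15.9% fell. In rank within the library it hardly moved, lying above 93.1% to 94.9% of genes tested at every time.

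aspA, the counterpart of CDC11, came next after aspB at 0, 6, 12, 30 and 48 h. Its TMM-scaled RPKM was 253, 259, 196, 137, 149.8, 152 and 164 from 0 to 48 h, and its deposited RPKM was 116, 227, 204, 147, 182, 199 and 228. These rested on 922, 1385, 974, 815, 1058, 2248 and 2347 counts. The 18 h library was its lowest in air on both scales. Over 0 to 48 h the fit gave -0.75 with TMM (SE 0.41; edgeR BH-adjusted p = 0.215) and 0.48 by totals (edgeR BH-adjusted p = 0.44), which did not pass the test. In rank within the library aspA lay above 90.2% of genes tested at 0 h and above 89.1% to 93.1% in air.

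aspC, the counterpart of CDC12, shared the low value at 18 h. Its TMM-scaled RPKM was 142, 183, 145, 103, 129.98, 103 and 132 from 0 to 48 h, and its deposited RPKM was 65.1, 161, 151, 109.95, 158, 135 and 184, from 523, 995, 730, 618, 930, 1545 and 1914 counts. For 18 over 12 h the TMM-scaled ratio was 0.709 for aspC (counting interval 0.636 to 0.790) and 0.701 for aspA (0.638 to 0.770). Its fit over 0 to 48 h gave -0.39 with TMM (SE 0.40; edgeR BH-adjusted p = 0.509) and 0.79 by totals (edgeR BH-adjusted p = 0.268), which did not pass either. In rank within the library aspC lay above 85.2% of genes tested at 0 h and above 85.8% to 90.9% in air.

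aspD, the counterpart of CDC10, did not share the low value at 18 h. Its TMM-scaled RPKM was 146, 206, 174, 193, 157, 152 and 141 from 0 to 48 h, and its deposited RPKM was 67.2, 181, 181, 207, 190.3, 199 and 196, from 481, 998, 781, 1035, 998, 2025 and 1820 counts. For 18 over 12 h its TMM-scaled ratio was 1.11, with an interval of 1.01 to 1.22, against the ratios near 0.7 of aspA and aspC. The fit for aspD over 0 to 48 h gave -0.34 with TMM (SE 0.39; edgeR BH-adjusted p = 0.563) and 0.84 by totals (edgeR BH-adjusted p = 0.294). In rank within the library aspD lay above 85.6% of genes tested at 0 h and above 91.1% to 92.0% in air.

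Thus with TMM 1 of the 5 septins, aspE, fell over 0 to 48 h and 0 rose, where 12.4% of all genes fell and 10.6% rose. The median fitted change of the 5 was -0.75 against 0.11 for all genes tested, and by totals 0.48 against 1.35. By totals, and without the 0 h or the 30 h library, 0 septins fell. The 4 core septins had fitted changes below the median of all genes on the same scale with TMM, RLE, upper quartile factors and totals, and the sign of each turned positive by totals alone. A curve with hours and hours squared passed the test for aspE (edgeR BH-adjusted p = 0.0094; 32.0% of all genes passed) and narrowly missed it for aspB (edgeR BH-adjusted p = 0.0511), with 0.127, 0.474 and 0.658 for aspA, aspC and aspD. For aspE the curve did not pass by totals (edgeR BH-adjusted p = 0.285; 48.1% of genes passed) nor with the 0 h library left out (edgeR BH-adjusted p = 0.066). It called aspB as well with RLE factors and with limma-voom, where 33.0% and 27.5% of genes passed, and aspA, aspB and aspE with DESeq2, where 39.8% passed.

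Within the 6 libraries in air no septin passed the slope test over 6 to 48 h. The fitted change was -0.97 for aspE (SE 0.31; edgeR BH-adjusted p = 0.0568), and 8.68% of all genes tested fell and 10.1% rose in this fit. It was -0.49 for aspA, -0.60 for aspB, -0.35 for aspC and -0.49 for aspD (edgeR BH-adjusted p = 0.411, 0.263, 0.563 and 0.313). These values leaned on the 6 h library: without it they were -0.039 for aspA, -0.24 for aspB, 0.038 for aspC and -0.34 for aspD. Of the 5 septins 1, aspE, had an unadjusted p under 0.05 with edgeR, and it was past the threshold with RLE factors (-1.01; edgeR BH-adjusted p = 0.0499), DESeq2 (-1.01; adjusted p = 0.0195) and limma-voom (-0.97; adjusted p = 0.0487), where 9.15%, 13.3% and 9.76% of genes fell. By totals the change of aspE over 6 to 48 h was -0.38 (edgeR BH-adjusted p = 0.389).

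**Figure D2:**
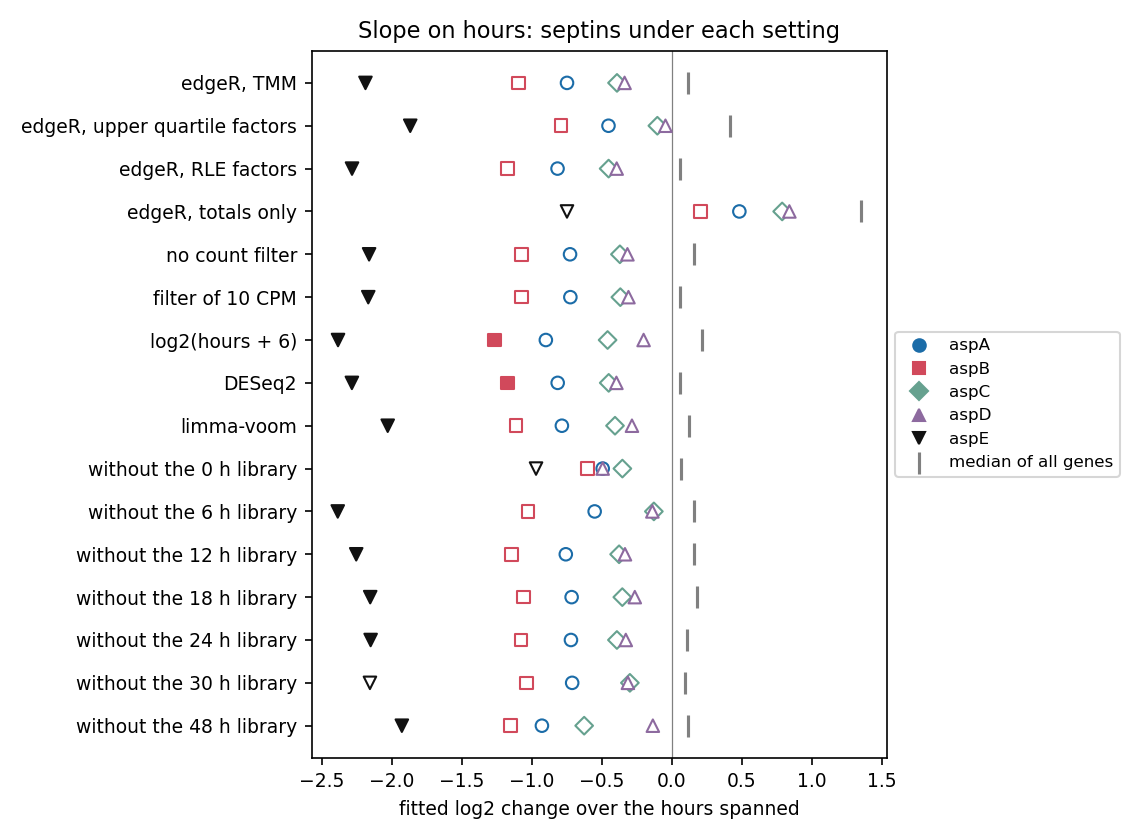
Fitted log2 change of each septin in the slope over 0 to 48 h (x axis, over the hours kept) under each processing setting (rows), with filled symbols for an adjusted p under 0.05 and a grey bar at the median of all genes. aspE is the lowest septin in every row, and the core septins lie below the median of all genes in every row.

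Ratios between septins within 1 library do not depend on the scaling of libraries, and they show how the make-up of the septin transcripts differed between times. In air the count per base of aspE was 0.191 to 0.461 times that of aspC, and at 0 h it was 1.06 times (counting interval 0.950 to 1.18). It was 0.179 to 0.282 times that of aspD in air and 1.03 times at 0 h (0.917 to 1.15), so that in the submerged culture aspE did not differ from aspC and aspD beyond counting error. Against aspA it was 0.154 to 0.345 in air and 0.594 at 0 h, and against aspB it was 0.119 to 0.202 in air and 0.317 at 0 h. For each of the 4 core septins, the ratio at 0 h lay above every ratio in air.

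**Figure D3:**
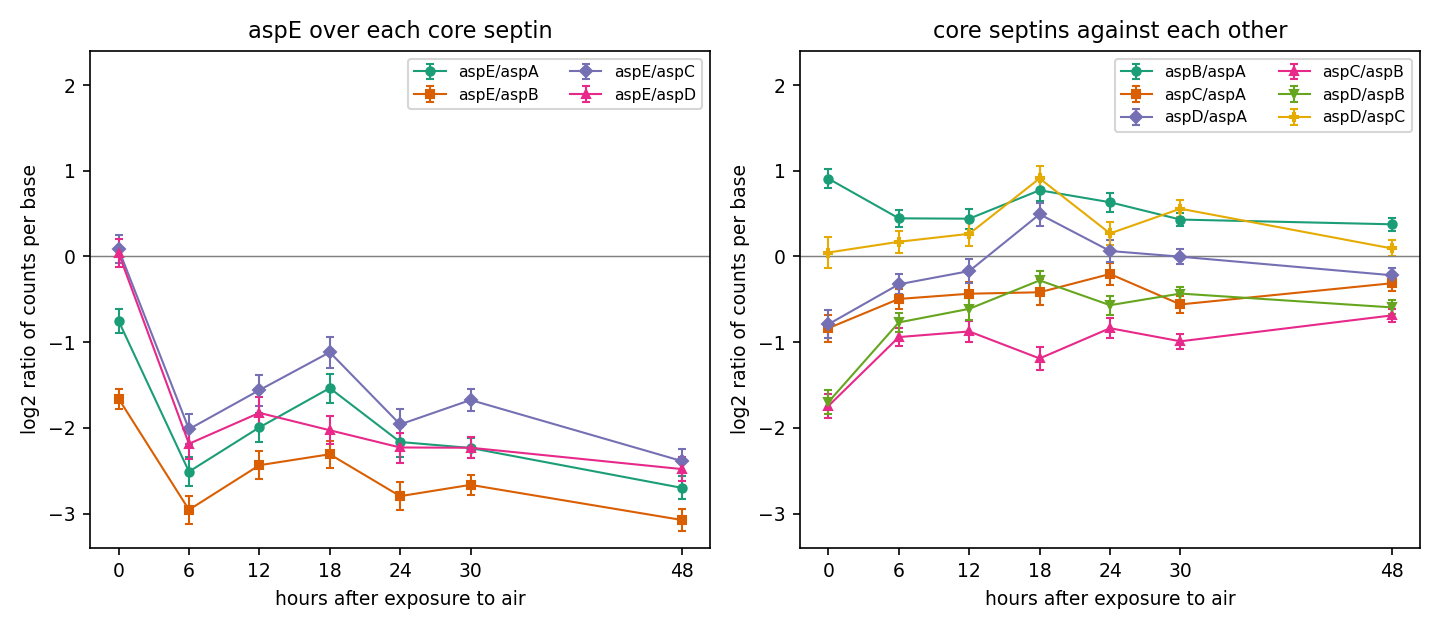
Log2 ratio of counts per base between pairs of septins within each library against hours after exposure to air, with exact 95% counting intervals. On the left, aspE over each core septin is highest at 0 h. On the right, aspD over aspA and aspD over aspC are highest at 18 h, and aspC and aspD over aspB are lowest at 0 h.

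The core septins also differed among themselves between 0 h and air. aspC was 0.438 to 0.621 times aspB in air and 0.299 times at 0 h, and aspD was 0.587 to 0.824 times aspB in air and 0.308 times at 0 h. The ratio of aspB to aspA was 1.30 to 1.71 in air and 1.88 at 0 h. Within air, aspD over aspC was 1.13, 1.20, 1.88, 1.20, 1.47 and 1.07 from 6 to 48 h, and the interval at 18 h (1.70 to 2.08) lay above those of all other times. aspD over aspA had its highest value at 18 h as well, 1.41 (1.28 to 1.54), against 0.798 at 6 h and 0.859 at 48 h.

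As shares of the summed septin count per base, aspE made up 12.9% at 0 h and 4.34%, 5.92%, 6.62%, 4.76%, 5.02% and 3.74% from 6 to 48 h. aspB made up 31.5% to 33.7% in air and 40.7% at 0 h. aspC made up 14.4% to 19.6% in air and 12.2% at 0 h, and aspD made up 19.7% to 27.0% in air and 12.5% at 0 h. The shares of aspC and aspD in air all lay above those at 0 h, and those of aspB and aspE all lay below. aspA stayed between 19.2% and 24.7% in all 7 libraries. Among the 4 core septins alone, aspB held 32.7% at 48 h and 46.7% at 0 h, aspC held 20.3% at 48 h and 13.95% at 0 h, and aspD held 21.7% at 48 h and 14.4% at 0 h, while aspA held 25.2% at 48 h and 24.9% at 0 h.

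**Figure D4:**
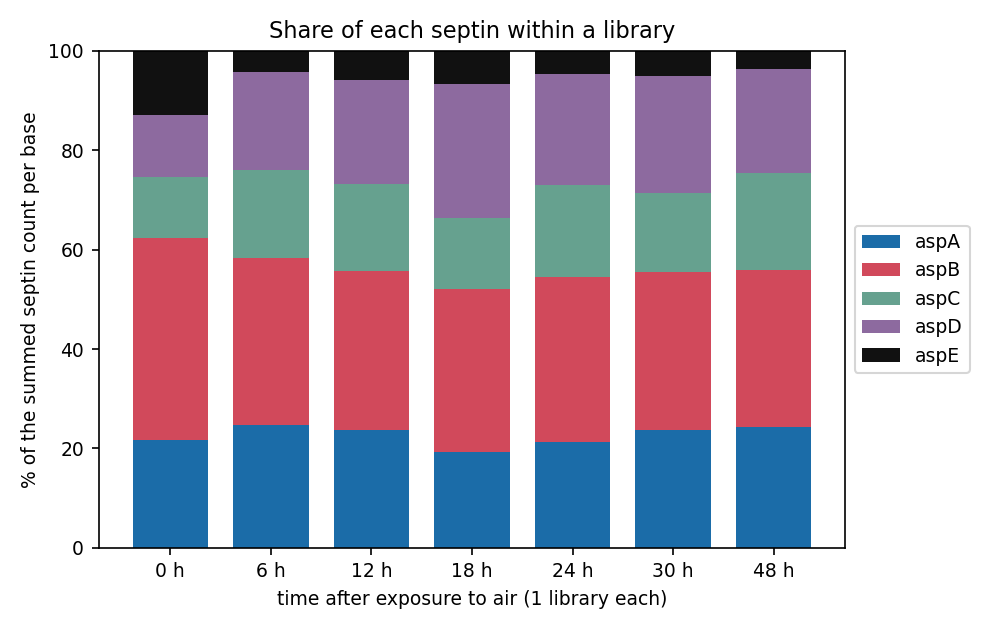
Share of each septin in the summed septin count per base (y axis, percent) in each of the 7 libraries, ordered by time. The share of aspE is at most 6.62% in air and 12.9% at 0 h, that of aspB is largest at 0 h, and that of aspD is largest at 18 h.

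None of these ratios had a slope on hours that passed the test. Over the 10 pairs, the exact two-sided permutation of the 7 times gave adjusted p-values from 0.237 to 0.833, with 0 pairs at an unadjusted p under 0.05, where the smallest p the design allows is 0.000397. The fitted change in log2 ratio over 0 to 48 h was -1.72 for aspE over aspD (Pearson r = -0.67, exact permutation p = 0.127; Spearman rho = -0.89, exact permutation p = 0.0123, adjusted p = 0.123 over 10 pairs). For aspE over aspC it was -1.63 (r = -0.68, rho = -0.57, exact permutation p = 0.097 and 0.2), over aspA -1.27 (r = -0.65, rho = -0.61, p = 0.117 and 0.167) and over aspB -0.93 (r = -0.65, rho = -0.57, p = 0.11 and 0.2). Among core septins it was 0.78 for aspD over aspB and 0.70 for aspC over aspB (exact permutation p = 0.194 and 0.0964). With time entered as log2 of hours plus 6, the unadjusted exact permutation p was 0.0103 for aspE over aspD and 0.0466 for aspE over aspC. For aspD over aspB and aspC over aspB it was 0.0327 and 0.0347, and the adjusted p of each of these pairs was 0.1.

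The relations rested on the ends of the course. Without the 0 and 48 h libraries, which are farthest from the median time, the fitted change was 0.15 for aspE over aspA, 0.088 over aspB, 0.11 over aspC and -0.20 over aspD (exact permutation p from 0.417 to 0.833), with Pearson r of 0.17, 0.13, 0.12 and -0.45. Over the 6 libraries in air the change in log2 ratio was -0.47 for aspE over aspD (exact permutation p = 0.0764, adjusted p = 0.764), and it was -0.62 to -0.37 for aspE over the other core septins. The difference in aspE between submerged culture and air thus lay in 1 library, and with no replicate at 0 h it could not be tested.

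The order of the septins by count per base was aspB, aspA, aspE, aspD and aspC at 0 h. There, aspE and aspD (ratio 1.03) and aspD and aspC (ratio 1.03, interval 0.910 to 1.17) did not differ beyond counting error. At 6, 12, 30 and 48 h the order was aspB, aspA, aspD, aspC and aspE, and aspA and aspD did not differ beyond counting error at 30 h (ratio 1.00, 0.943 to 1.06). At 18 and 24 h aspD came before aspA, and those 2 did not differ beyond counting error at 24 h (ratio 1.04, 0.957 to 1.14). aspE was last at all 6 times in air, with the next septin, aspC, at 2.17 times its count per base at 18 h and 5.23 times at 48 h.

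The 5 septins together took 0.0943% to 0.114% of the counts in air and 0.0700% in the submerged culture (exact 95% interval 0.0680 to 0.0720%). Summed per kilobase on the TMM scale they stood at 1167 RPKM at 0 h, 1045 at 6 h, 829 at 12 h and 644 to 715 from 18 h on. The sum was thus lowest at 0 h by totals and highest at 0 h with TMM.

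The genes whose course over the 7 libraries was most like that of aspE, by Pearson correlation of log2 TMM-scaled CPM plus 0.5 among 7178 other genes, were rfeF (0.996, the highest of all), midA (0.989), which encodes a subunit of a stretch-activated calcium channel, and bgt3 (0.987), taking genes with a symbol. rfeF had 260 CPM at 48 h and 2279 CPM at 0 h, and midA had 339 CPM at 48 h and 2571 CPM at 0 h. For aspB they were somA (0.993), aspf22 (0.979) and pmt4 (0.978), a protein O-mannosyltransferase gene. For aspA they were digA (0.967), rpt1 (0.946) and pab1 (0.929), for aspC tif32, EifCb and sec23 (0.967 to 0.963), and for aspD hapX, erg2 and ssn8 (0.933 to 0.925). With 7 points that share libraries and scaling, these values are a description.

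No septin was among the 100 genes most like any other septin. The likeness between septins was 0.89 for aspE and aspB, 0.89 for aspA and aspB and 0.84 for aspA and aspC. It was 0.25 for aspE and aspC and 0.012 for aspE and aspD. aspD was the least like the rest, at 0.18 with aspA, 0.14 with aspB and 0.30 with aspC.

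Other genes of septation and polarized growth were set beside the septins, with names from the reference table or, where it gave none, as entered by identifier; sepA, myoB and nudC each stood in more than 1 list. The lists are partial: of the genes entered, 6 of 14 for septation and 8 of 16 for polarity and landmarks were matched to a row. So were 14 of 16 for the cytoskeleton and 5 of 17 for the cell cycle, and the others are not analysed here. The 8 chitin synthase names entered gave 7 rows, because chsA and chsC led to the same row, AN4566. Of 6 genes of septation and the contractile ring, 1 rose over 0 to 48 h and 0 fell, where 10.6% of all genes rose and 12.4% fell, with a median fitted change of -0.14 against 0.11 for all genes. That gene was AN6288, entered as mobA, whose product activates the septation kinase SidB: it had 46.9 CPM at 48 h and 6.89 CPM at 0 h (2.45 ± 0.38 SE; edgeR BH-adjusted p = 0.00328), but leaving out the 48 h library ended the call (1.37; edgeR BH-adjusted p = 0.0667). The formin gene sepA (AN6523), which nucleates actin at septa, had 86.8 CPM at 48 h, against 141 CPM at 0 h (edgeR BH-adjusted p = 0.336), and AN4384, entered as the septation kinase gene sepH, had 51.1 and 107 CPM at these times (edgeR BH-adjusted p = 0.11). AN4706, entered as the type II myosin gene myoB, had 91.7 CPM at 48 h, against 91.2 CPM at 0 h (edgeR BH-adjusted p = 0.969).

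Of 8 polarity and septum landmark genes 1 rose and 0 fell, a share near the 10.6% of all genes that rose, with a median of -0.48. AN1359, entered as axlB, a homologue of the S. cerevisiae bud site gene AXL2, had 92.2 CPM at 48 h and 22.2 CPM at 0 h (1.67 ± 0.36 SE; edgeR BH-adjusted p = 0.012). Leaving out the 48 h library ended this call too (0.82; edgeR BH-adjusted p = 0.173). AN0113, entered as budA, had 288 CPM at 48 h and 529 CPM at 0 h, teaA, a cell end marker gene, had 129 and 252 CPM, and bud4, which acts with septins in S. cerevisiae, had 144 and 247 CPM (edgeR BH-adjusted p = 0.528, 0.232 and 0.319).

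Among 14 genes of actin, tubulin and motors 0 rose and 2 fell, a share near the 12.4% of all genes that fell, with a median of -0.25. The actin gene act1 had 741 CPM at 48 h and 5992 CPM at 0 h (-2.79 ± 0.56 SE; edgeR BH-adjusted p = 0.00893). AN1558, entered as the class I myosin gene myoA, had 84.1 CPM at 48 h and 786 CPM at 0 h (-2.80 ± 0.52 SE; edgeR BH-adjusted p = 0.00632), a call that ended by totals (-1.37; edgeR BH-adjusted p = 0.0508). The tubulin genes AN6838 (entered as tubC) and AN0316 (entered as tubA) had 880 and 583 CPM at 48 h against 1111 and 803 CPM at 0 h (edgeR BH-adjusted p = 0.772 and 0.344). By totals 2 of the 14 rose and 1 fell, where 21.2% of all genes rose and 3.21% fell.

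Of 5 cell cycle genes 0 rose and 0 fell by edgeR's test, where 10.6% of all genes rose and 12.4% fell, with a median of 0.13. By totals 0 of the 5 were called, where 21.2% of all genes rose and 3.21% fell. The cyclin B gene nimE had 106 CPM at 48 h, against 138 CPM at 0 h (edgeR BH-adjusted p = 0.638), nimT, the phosphatase that activates the mitotic kinase, had 102 and 90.2 CPM (edgeR BH-adjusted p = 0.846), and glcA, a type 1 phosphatase gene, had 107 and 77.1 CPM (edgeR BH-adjusted p = 0.664).

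Among the 7 genes of chitin synthases, whose products lay down chitin at tips and septa, 2 fell and 1 rose, with a median of -0.93. Of all genes, 12.4% fell and 10.6% rose. The names of the 7 are those of the reference table, and some differ from the names entered, so the identifiers define the genes. In that table chsD is AN1046, chsF is AN1555 and chsG is AN2523. AN1555 was entered as chsD, AN2523 as chsB and AN6318, here chsE, as csmA. AN1555 had 211 CPM at 48 h, against 472 CPM at 0 h (-0.99; edgeR BH-adjusted p = 0.137). chsE (AN6318) and csmB (AN6317) had 378 and 418 CPM at 48 h against 4370 and 4173 CPM at 0 h (-3.17 and -2.96; edgeR BH-adjusted p = 0.0107 and 0.0111). chsD (AN1046) had 6.995 CPM at 48 h and 1.25 CPM at 0 h (2.22 ± 0.69 SE; edgeR BH-adjusted p = 0.0463), and leaving out any 1 of the 7 libraries ended the call (edgeR BH-adjusted p from 0.0594 to 0.11). Its level was low, with a mean of 4.08 CPM over the 7 libraries, and a filter at 10 CPM left it untested. chsG had 319 CPM at 48 h, against 633 CPM at 0 h (edgeR BH-adjusted p = 0.156). Over 6 to 48 h, 1 septation gene and 1 landmark gene rose, 2 cytoskeletal and 2 chitin synthase genes fell, and 0 cell cycle genes were called, where 10.1% of all genes rose and 8.68% fell. By totals these counts differed: 2 septation, 1 landmark, 3 cytoskeletal, 1 cell cycle and 1 chitin synthase gene rose and 1 cytoskeletal gene fell, where 22.3% of all genes rose and 3.91% fell, and nudC counts in both the septation and the cytoskeletal list. The calls of myoA, chsE and csmB ended by totals (edgeR BH-adjusted p = 0.0656, 0.0556 and 0.0647), and those of chsE and csmB also without the 6 h library (edgeR BH-adjusted p = 0.0625 and 0.0585). axlB was lost without the 12 h library and with log2 of hours plus 6 (edgeR BH-adjusted p = 0.0671 and 0.073). Of the 6 genes called with TMM, act1 alone passed that test without the 48 h library.

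**Figure D5:**
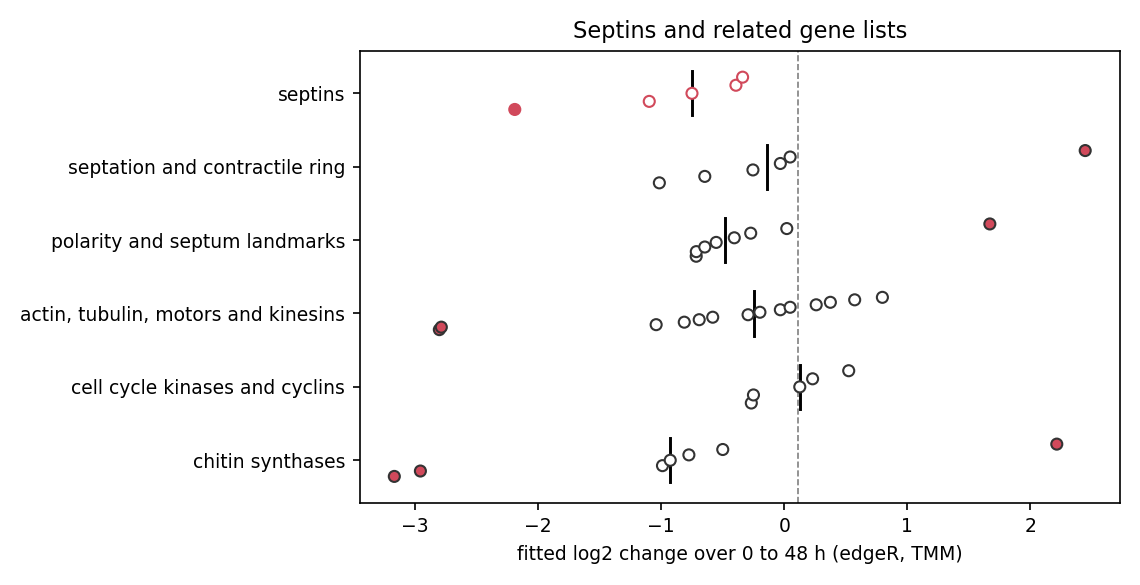
Fitted log2 change over 0 to 48 h (edgeR with TMM) for each septin and each gene of the related lists, with filled points for an adjusted p under 0.05, a black bar at the median of each list and a dashed line at the median of all genes, 0.11. The filled septin is aspE at -2.19; 2 cytoskeletal and 2 chitin synthase genes lie below it.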

How the data were processed

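For every gene and time the table holds, per the file headers, a whole-number count, a coverage signal (reads per nucleotide) and RPKM. The RPKM values deposited by the authors use the total of the same count column, and the deposited signal gave the coding lengths used here. The counts deposited by the authors were the values tested. The submitters' processing notes name CASAVA as a tool. The sources used here do not give the aligner, build, strand setting or any pooling of the duplicate filters, so sense and antisense reads cannot be told apart. With 1 library per time, p-values measure the scatter of libraries around a fitted line.

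Slopes on hours were fitted across all genes with edgeR 4.0.16 (R 4.3.3; quasi-likelihood test, robust, TMM), and p-values were adjusted by Benjamini-Hochberg at 0.05. Genes needed 1 CPM in at least 1 library and 15 counts in all. Ratios within libraries were tested by exact permutation of hours over 5040 orders, and counting intervals are exact at 95%. limma 3.58.1 and DESeq2 1.42.0 gave alternatives. The fits were tested on simulated data with a fixed dispersion and changes that followed a line or curve of hours. That test does not bear on a change that lies mostly in 1 library, as for aspE. Symbols came from the ASM1142v1 reference table, which held 10455 of 10639 identifiers. Members and lists were chosen with earlier results of these data known. Named are the septins, the called and the 3 most abundant genes of each list, and for each septin the 3 genes with a symbol most like it at a mean of 10 CPM or more.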

Additional observations from a re-analysis of the deposited data

How the results depend on the processing

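No paired analysis was possible because each time had 1 library. Leaving out each library in turn gave fitted changes for aspE of -2.39 to -0.97 over 0 to 48 h and -0.94 to -0.57 over 6 to 48 h, curve adjusted p-values of 0.00047 to 0.066, and 0 to 1 septins falling over 0 to 48 h or 0 to 2 called by the curve. By totals, the change of aspE over 0 to 48 h was -0.75 and its curve adjusted p 0.285. On that scale 0 septins fell and 0 were called by the curve, against 3.21% and 48.1% of all genes. The core septins turned positive, at 0.48, 0.20, 0.79 and 0.84 for aspA to aspD over 0 to 48 h. Over 6 to 48 h they were 0.11, 0.00196, 0.25 and 0.11. Septins falling over 0 to 48 h numbered 2 with DESeq2 and 2 on log2 hours plus 6, where 16.2% and 15.9% of all genes fell. Over 6 to 48 h, aspE was past the threshold with RLE factors (-1.01), DESeq2 (-1.01) and limma-voom (-0.97). So 1 septin fell with each, where 9.15%, 13.3% and 9.76% of all genes fell. The curve called 2 septins with RLE factors, 3 with DESeq2 and 2 with limma-voom, where 33.0%, 39.8% and 27.5% of all genes passed. Leaving out each library gave -0.72 to -0.039 for aspA, -0.66 to -0.24 for aspB and -0.68 to 0.038 for aspC over 6 to 48 h, -0.019 to 0.82 for aspD over aspA and -0.15 to 0.50 for aspD over aspC. In air alone, the ratio changes of aspD over aspA and over aspC turned to -0.019 and -0.15; without the 30 h library the second was -0.00105. In the fit without the 0 and 48 h libraries, chosen after seeing the data, ratio changes turned for aspB over aspA (0.065), aspC over aspB (-0.024) and aspE over aspA, aspB and aspC (0.15, 0.088 and 0.11). Pairs past the threshold were 0 under all 11 alternatives, of which air alone and leaving out the 0 h library are the same fit. Without the 0 and 48 h libraries the smallest p possible is 0.0167, which a single pair among 10 could not bring past the threshold after adjustment. The cause of these shifts was not tested. Over all genes, 2053 rose and 311 fell over 0 to 48 h by totals, against 1028 and 1204 with TMM, 639 and 691 without the 30 h library and 642 and 768 without the 48 h library. Over 6 to 48 h, 2157 rose and 379 fell by totals, against 977 and 841 with TMM, 1285 fell with DESeq2, 628 and 532 were called without the 12 h library and 408 and 284 without the 48 h library. The curve called 4671 genes by totals, against 3106 with TMM, 2031 without the 18 h library and 1640 without the 48 h library. Each septin value rested on 365 or more counts. The spread between replicates is unknown, and the scaling sets the sign of the fitted changes of the core septins.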
